A study of Mus musculus with 6 samples.

Results

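Cytosolic DNA sensing was followed through 9 genes, chosen by symbol and not by their values: Cgas, Tmem173 (the symbol under which the table lists Sting1), Tbk1, Ikbke, Irf3, Trex1, Zbp1, Samhd1 and Hmgb1. Earlier results of these data were known when they were chosen. All 9 had a row among the 15319 genes listed, and all 9 had reads in each of the 6 libraries. RNA-Seq was made from tumor-infiltrating Tregs, the Foxp3+ CD4+ T cells that restrain other lymphocytes. The mice, on a C57BL/6J background and 8 to 10 weeks old at injection, received LLC cells, a mouse lung carcinoma line, into a tail vein, and lung tumors were taken at 21 days. The WT group (Foxp3Yfp-Cre, 3 libraries) and the cKO group (Xrcc6flox/floxFoxp3Yfp-Cre, 3 libraries) both carried the Cre fused to YFP and driven from Foxp3. By the genotypes given, the floxed alleles of Xrcc6, which encodes Ku70, set the groups apart. The control thus holds no floxed allele, and the deletion follows wherever Foxp3 has been on. The sort gate for the tumor and the number of mice behind a library are not given in the sources used here. The p-values thus set a group difference against the variation between libraries, which may differ from that between mice.

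In this pathway the enzyme cGAS binds double-stranded DNA in the cytosol and makes the cyclic dinucleotide cGAMP. STING, an endoplasmic reticulum protein, binds cGAMP and recruits the kinase TBK1 or its relative IKKε, which phosphorylates the transcription factor IRF3 to switch on type I interferon. TREX1 and SAMHD1 keep the pathway quiet by degrading DNA and by depleting the deoxynucleotides from which it is made. In T cells strong STING activation is known to slow proliferation and to cause death, and Ku70 itself binds the ends of DNA and has been described as a sensor.

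Library totals were alike, from 19032620 to 23159815 counts, and a limit of 3 counts was worth 0.133 to 0.156 CPM (counts scaled to a common library total by TMM). WT replicate 2 stood apart: it had reads for 11513 genes against 14442 to 14737 in the others, and its highest correlation with another library was 0.930, while the others reached at least 0.991. Every comparison is therefore given with and without it. Xrcc6, the targeted gene, held 5.24, 3.51 and 4.18 CPM in cKO replicates 1 to 3, and WT replicates 1 to 3 held 20.9, 63.1 and 23.8 CPM. Its log2 fold change was -3.06 (edgeR's quasi-likelihood test, Benjamini-Hochberg adjusted p = 0.984) in all libraries and -2.38 (adjusted p = 0.0196) without WT replicate 2. All 7 Treg markers were detected, with summed levels of 4170.2 to 5536 CPM in WT and 4299 to 4703 CPM in cKO. Summed macrophage and dendritic cell markers, all 13 detected, ran from 212 to 773 CPM in WT and from 264 to 1171 CPM in cKO. The other marker lists stayed lower in both groups. Their WT and cKO ranges were 30.0 to 49.5 and 44.0 to 47.9 CPM for neutrophils, where Ly6g did not pass 3 counts in any library, and 15.0 to 65.0 and 12.5 to 51.4 CPM for B cells. Within these sums, 2 neutrophil genes had an unadjusted p under 0.05 in both fits: Retnlg had 0 counts in each WT library and 19, 13 and 34 in the cKO libraries, and S100a9 had 2, 0 and 4 counts in WT and 24, 28 and 43 in cKO. The endothelial gene Vwf likewise had 0, 0 and 1 counts in WT and 26, 5 and 6 in cKO, and the dendritic cell gene Xcr1 had such a p without WT replicate 2, at 274 and 146 counts in WT and 158, 144 and 99 in cKO. None of these 4 passed adjustment (edgeR adjusted p = 0.984 in all libraries for the first 3, and 0.997 without WT replicate 2 for all 4). An unadjusted p under 0.05 was held by 1.81% of all genes in the 6 libraries and by 3.01% without WT replicate 2. Xcr1 (log2 fold change -0.74) was the only gene of the macrophage and dendritic cell list below 0 without WT replicate 2. The others of that list then ran from 0.05 (Siglech) to 1.16 (Itgax). In all libraries Cd68 (-0.67), Siglech (-0.58) and Xcr1 (-0.21) were below 0 and the others above. Of the other neutrophil genes, Cxcr2 (WT mean 9.17, cKO mean 6.12 CPM) and Csf3r (3.45 and 3.25 CPM) were lower in cKO. S100a8 (3.47 and 4.36 CPM) and Mmp9 (25.2 and 29.3 CPM) were higher. Without WT replicate 2 the log2 fold changes were -0.56 for Cxcr2, 0.02 for Csf3r, 1.39 for S100a8 and 0.33 for Mmp9. S100a8 and Mmp9 were then higher in every cKO than in every WT library, as were 8.48% of all genes. The summed ranges were 5.26 to 26.4 and 25.1 to 28.4 CPM for CD8 T and NK cells, 38.6 to 105 and 39.8 to 70.6 CPM for lung epithelium and tumor cells, and 61.6 to 82.7 and 71.1 to 97.3 CPM for endothelial and stromal cells. In bulk RNA, fewer cells of a type and less RNA per cell cannot be told apart, and the part of these cells in the levels given here was not tested.

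Several of these genes are themselves known to be induced by interferon, so their promoters were searched for response elements. RefSeq windows of GRCm38.p6, from 250 bases before to 50 bases after a start site, were searched for 7 of the genes, with 9 windows in all. Tmem173 and Zbp1 were not searched. The patterns, sought on both strands, were the interferon-stimulated response element core GAAANNGAA, held by 8.56% of 32851 promoters, the NF-kB core GGGANNTTC, held by 3.94%, and the gamma-activated site TTCNNNGAA, held by 8.30%. A single match was found, a gamma-activated site at position -235 from the Samhd1 start, which as a near-palindrome reads on both strands. The 3 stretches upstream of any annotated exon shown here are the Samhd1 one for its match (capitals), and those of the paired kinase genes Tbk1 and Ikbke, which hold none of the 3 patterns. They lie on the minus strand at chr2:157135266-157135346, chr10:121586795-121587044 and chr1:131279607-131279813.
Samhd1: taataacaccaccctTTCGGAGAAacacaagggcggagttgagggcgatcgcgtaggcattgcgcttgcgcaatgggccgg
Tbk1: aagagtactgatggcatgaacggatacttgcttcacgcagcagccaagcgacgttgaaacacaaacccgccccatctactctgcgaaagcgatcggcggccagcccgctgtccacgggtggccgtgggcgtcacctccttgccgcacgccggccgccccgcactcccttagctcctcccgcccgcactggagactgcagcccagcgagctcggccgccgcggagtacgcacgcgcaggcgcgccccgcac
Ikbke: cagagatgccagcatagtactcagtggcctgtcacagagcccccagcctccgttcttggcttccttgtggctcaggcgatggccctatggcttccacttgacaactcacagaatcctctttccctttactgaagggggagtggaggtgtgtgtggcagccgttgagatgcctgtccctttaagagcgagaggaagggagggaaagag
These letters are a description of the windows and say nothing of which factor was bound in the cells.

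The components of the pathway were present at very unequal levels. Per length of the principal transcript, Hmgb1 and Samhd1 were at the top and the sensor Cgas was at the bottom. On the scale of CPM per kb, the median over the 6 libraries was 133 for Hmgb1, 129 for Samhd1, 91.5 for Tmem173, 89.6 for Trex1, 55.6 for Zbp1, 43.0 for Ikbke, 36.1 for Irf3, 14.6 for Tbk1 and 1.21 for Cgas. Hmgb1 lay above 96.2% of 14780 genes and Cgas above 33.4%. The adaptor STING was thus among the more abundant transcripts, above 94.5% of genes, while the enzyme that feeds it was among the scarcer ones. The ranges of neighbors in this order overlapped, except that the lowest Irf3 library (30.7) was above the highest Tbk1 library (17.2), and the lowest Tbk1 library (13.6) was above the highest Cgas library (1.51). Trex1 and Zbp1 overlapped only through WT replicate 2: without it Trex1 ran from 83.1 to 115 and Zbp1 from 51.0 to 72.9 CPM per kb, and Ikbke (31.9 to 45.9) then lay below Zbp1. With the union of all exons as the length, a setting added after seeing the data, Trex1 (84.7), Tmem173 (76.8) and Hmgb1 (75.0) led and Samhd1 (55.4) was the fourth, and Irf3 (21.3) came above Ikbke (15.5), so the order within the top 4 and of this pair depends on the length used.

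**Figure D1:**
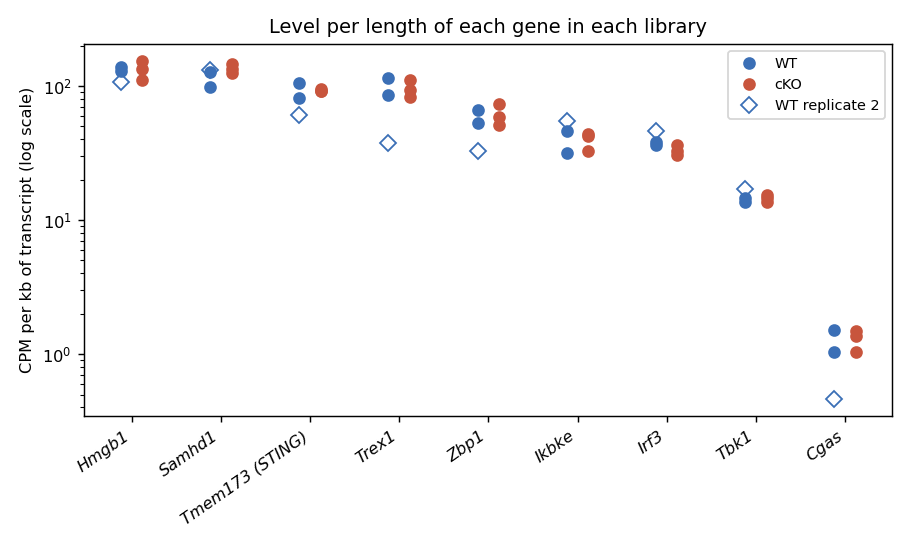
Level of the 9 cytosolic DNA sensing genes in CPM per kb of principal transcript (log axis), each point a library, blue for WT and red for cKO, with WT replicate 2 as an open diamond. The median falls from 133 for Hmgb1 to 1.21 for Cgas, and the WT and cKO ranges overlap for each gene.

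For the sensor and its adaptor, the difference between cKO and WT Tregs was smaller than the spread of the libraries. Cgas (GRCm38 chromosome 9, 78430526 to 78443237), which makes cGAMP, was at 6.12, 1.88 and 4.17 CPM in the WT replicates and at 6.08, 4.23 and 5.56 CPM in the cKO replicates. Only WT replicate 2 was low, at 40 counts against 80 to 131 in the others, and the groups overlapped. The means were 4.06 ± 2.12 and 5.29 ± 0.955 CPM (SD, n = 3), and edgeR's log2 fold change was 0.38 (SE 0.56, adjusted p = 0.984), which fell to 0.04 (SE 0.28, adjusted p = 0.997) without WT replicate 2. An annotated pseudogene, Gm8093, overlaps Cgas on the other strand, and strand use in the counting is not given in the sources used here. Tmem173 (chromosome 18, 35733679 to 35740554), which encodes STING, was at 244, 140.2 and 187 CPM in WT and at 219, 209.5 and 211 CPM in cKO. The 3 cKO libraries were close together and lay inside the WT range. The means were 190.2 ± 51.8 and 213 ± 5.12 CPM (SD, n = 3), and the fitted log2 difference was 0.17 (95% interval -0.32 to 0.65) and, without WT replicate 2, -0.01 (-0.37 to 0.34).

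**Figure D2:**
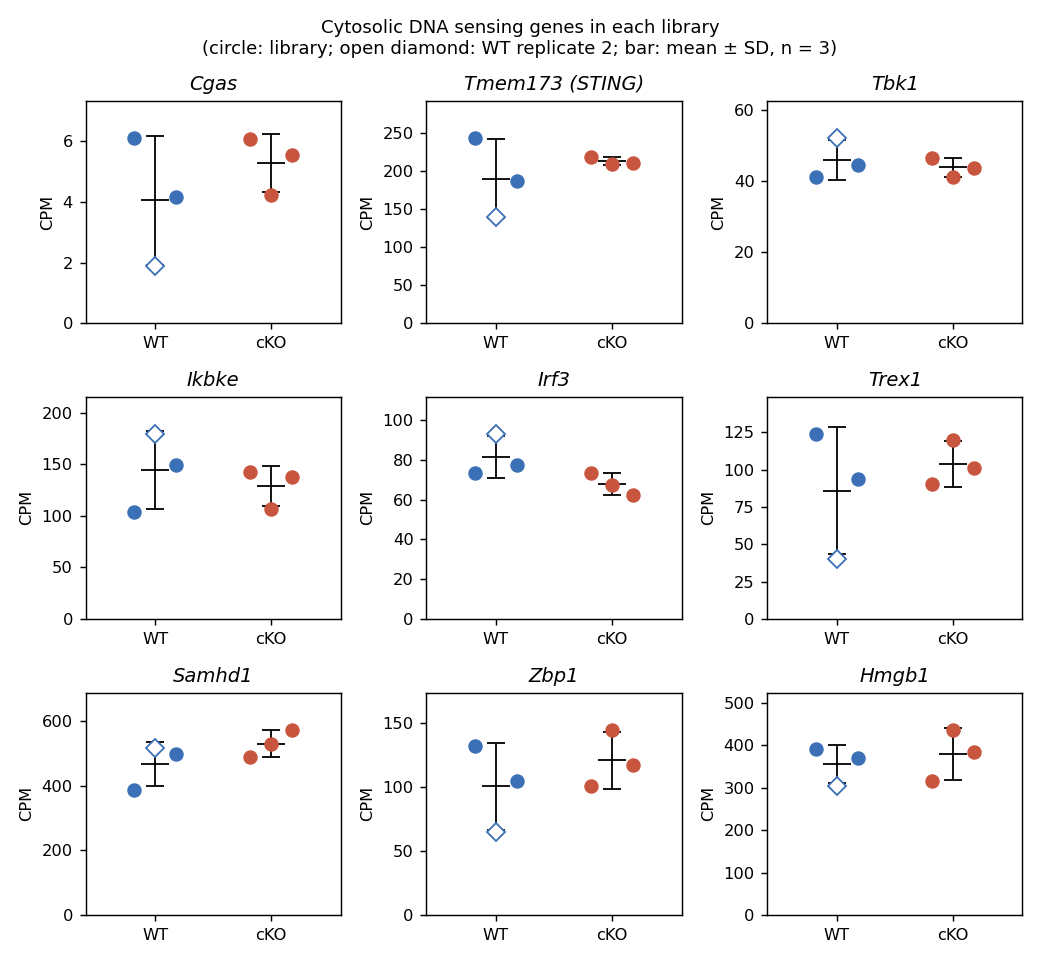
CPM of each of the 9 genes in the 3 WT (blue) and 3 cKO (red) libraries, one panel per gene on its own linear axis from 0, with WT replicate 2 as an open diamond and horizontal and vertical bars for the mean and SD of 3 libraries. WT and cKO points overlap in every panel, and WT replicate 2 is the lowest library for Cgas, Tmem173, Trex1, Zbp1 and Hmgb1.

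Both kinases were present, and neither passed the test in either fit. Tbk1 (chromosome 10, 121546455 to 121586787), the principal kinase of STING and IRF3, was the steadiest of the 9 genes, at 41.1, 52.1 and 44.4 CPM in WT and 46.4, 41.2 and 43.7 CPM in cKO. WT replicate 2 was the high library, and the other 5 spanned a 1.13-fold range. Its log2 fold change was -0.07 (95% interval -0.43 to 0.30), and 0.03 (-0.25 to 0.32) without WT replicate 2. Ikbke (chromosome 1, 131254343 to 131279606), which encodes the inducible kinase IKKε, was at 104, 179.5 and 149 CPM in WT and 142, 107 and 138 CPM in cKO, a fitted log2 fold change of -0.16 (-0.69 to 0.37). The lowest library of each group was at nearly the same level, and WT replicate 2 was again the highest. Without WT replicate 2 the log2 fold change of Ikbke was 0.03 (-0.41 to 0.46). The antisense genes Gm28913 and Gm28914 overlap Ikbke. The ratio of Ikbke to Tbk1 reads, which no scaling can alter, was 2.53, 3.44 and 3.37 in WT and 3.06, 2.60 and 3.16 in cKO, with means of 3.11 ± 0.509 and 2.94 ± 0.297 (SD, n = 3; two-sided exact permutation p = 0.600, where 3 against 3 cannot go below 0.1). Every library thus held more Ikbke than Tbk1 reads, and the ratio did not separate the groups. Without WT replicate 2 the WT mean of the ratio was 2.95, against 2.94 in cKO.

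Irf3 had the smallest p of the 9 genes in all libraries, and it did not pass. Irf3 (chromosome 7, 44997648 to 45002848), the factor that TBK1 phosphorylates, was at 73.3, 93.1 and 77.4 CPM in WT and 73.4, 67.1 and 62.4 CPM in cKO. A single pair of libraries, WT replicate 1 and cKO replicate 1, kept the groups from separating. The means were 81.3 ± 10.4 and 67.7 ± 5.53 CPM (SD, n = 3), and the fitted log2 difference was -0.26 (95% interval -0.61 to 0.09, adjusted p = 0.984 by edgeR's quasi-likelihood test) and -0.16 (-0.45 to 0.13, adjusted p = 0.997) without WT replicate 2. Irf3 overlaps Bcl2l12, which lies on the other strand. The 3 genes nearest to Irf3 in profile over the 6 libraries, among 8447 genes of at least 10 CPM on average, were Ttc39b, Snrnp70 and Alkbh1, with root mean square differences of 0.028, 0.037 and 0.044 in centered log2(CPM + 0.5). They shared its high level in WT replicate 2, Ttc39b for instance at 181 CPM there and at 117 to 148 CPM elsewhere.

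Of the genes that clear DNA or deplete deoxynucleotides, Trex1 varied with WT replicate 2 and Samhd1 did not. Trex1 (chromosome 9, 109057933 to 109059734), the main cytosolic DNA exonuclease, was at 124, 40.5 and 93.5 CPM in WT and 90.1, 120.0 and 101 CPM in cKO. The other 5 libraries lay between 90.1 and 124 CPM, with both groups spread over that range. Its log2 fold change was 0.27 (95% interval -0.59 to 1.13) in all libraries and -0.07 (-0.48 to 0.34) without WT replicate 2. Trex1 overlaps Atrip on the same strand. Samhd1 (chromosome 2, 157097533 to 157135265), the deoxynucleotide triphosphohydrolase, was at 388, 516 and 498 CPM in WT and 488, 530.4 and 574 CPM in cKO. WT replicate 1 was the lowest library and cKO replicates 2 and 3 the highest. Its means were 467 ± 69.5 and 531 ± 43.4 CPM (SD, n = 3), and the fitted log2 difference was 0.18 (95% interval -0.24 to 0.60, adjusted p = 0.984 by edgeR) and 0.26 (-0.15 to 0.67, adjusted p = 0.997) without WT replicate 2. No annotated gene overlaps Samhd1. Lsm11, Xrn2 and Tgfbr2 had profiles nearest to it, with root mean square differences of 0.038, 0.038 and 0.053. Each was lowest in WT replicate 1, as Samhd1 was.

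Zbp1 and Hmgb1 act beside the cGAS-STING axis. Zbp1 (chromosome 2, 173206612 to 173218923), a sensor of Z-form nucleic acid that can start necroptosis, was at 132, 64.6 and 105 CPM in WT and 101, 145 and 117 CPM in cKO. WT replicate 2 was the lowest library, and the other WT values lay within the cKO range. The log2 fold change was 0.27 (95% interval -0.36 to 0.90), and 0.04 (-0.39 to 0.46) without WT replicate 2. Hmgb1 (chromosome 5, 149046702 to 149184489), a chromatin protein that bends DNA and acts as an alarmin outside the cell, was at 391, 305 and 369 CPM in WT and 315, 437 and 384 CPM in cKO. Its lowest libraries were 1 from each group. The log2 fold change was 0.09 (-0.34 to 0.53), and -0.00 (-0.42 to 0.41) without WT replicate 2. Hmgb1 is uncertain as a count, since all 6 deposited values were not whole, 13 pseudogenes carry its name in the annotation, and Uspl1 and Mm2pr overlap it.

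None of the 9 genes passed a test of cKO against WT. By edgeR's quasi-likelihood test 0 of 9 passed an adjusted p of 0.05 in either fit, with 0 passing by DESeq2, and 0 of 9 had an unadjusted p under 0.05 by either tool. Over all genes in the 6 libraries 0% passed the adjusted threshold by edgeR and 1.81% the unadjusted one. Without WT replicate 2 these shares were 0.00654% and 3.01%, so that 0 of 9 is near the background. With DESeq2 the adjusted threshold was passed by 2 genes in all libraries and by 3 without WT replicate 2. In the 6-library fit 6 of the 9 log2 fold changes were above 0, with a median of 0.17 against 0.04 over all genes, and without WT replicate 2 the median was 0.03 against -0.01. The groups overlapped for all 9 genes in both sets of libraries. In all libraries 5.01% of genes were higher in every cKO than in every WT library and 3.23% lower, and without WT replicate 2 these shares were 8.48% and 7.53%. Without WT replicate 1 the overlap was lost for Cgas and Tmem173 (higher in cKO) and for Ikbke and Irf3 (lower), where 15.3% of all genes were higher in every cKO library and 11.6% lower. Without cKO replicate 1 it was lost for Samhd1 (higher) and Irf3 (lower), against 11.3% and 8.42% of all genes.

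The intervals narrowed when WT replicate 2 was left out. With all libraries the 95% interval stayed within a log2 difference of 1 in either direction, a 2-fold change, for 7 of the 9 genes, with Cgas (-0.93 to 1.70) and Trex1 (-0.59 to 1.13) reaching past it. Without WT replicate 2 all 9 stayed within it. Among all genes the same held for 41.5% with all libraries and 62.7% without WT replicate 2, and among the 8447 genes of at least 10 CPM, which do not include Cgas, for 73.5% and 96.6%. Standard errors ran from 0.15 to 0.56 in the first fit and from 0.13 to 0.28 in the second. Differences that lie inside these intervals were not excluded.

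**Figure D3:**
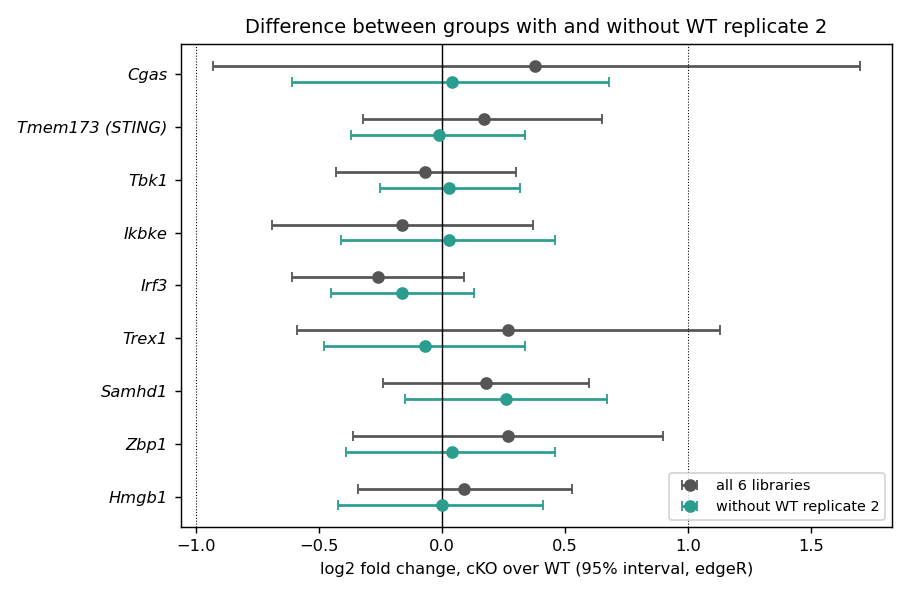
Log2 fold change of cKO over WT for each of the 9 genes (points) with its 95% interval (bars) from edgeR, in grey for all 6 libraries and in green without WT replicate 2. All intervals cross 0, and the Cgas interval narrows from -0.93 to 1.70 to -0.61 to 0.68.

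WT replicate 2 did not lie uniformly low or high across the pathway. It was the lowest library for 5 of the 9 genes and the highest for 3, the kinases and Irf3. Relative to the median of the other 5 libraries, on the log2(CPM + 0.5) scale, Cgas was at -1.35, Trex1 at -1.30, Zbp1 at -0.85, Tmem173 at -0.59 and Hmgb1 at -0.33, each below all 5 others. Irf3 (0.34), Ikbke (0.38) and Tbk1 (0.25) were each above all 5 others, and Samhd1 (0.05) lay within their range. Over 11538 genes of at least 1 CPM in the other libraries, 44.5% were below all 5 and 34.8% above all 5, with a median of -0.09 and quartiles of -0.88 and 0.45, so that such places are common in this library. Leaving it out lowered the coefficient of variation over libraries from 34.6% to 18.5% for Cgas, from 31.7% to 14.7% for Trex1 and from 9.16% to 5.15% for Tbk1. Samhd1 was the exception, at 12.5% with it and 13.9% without.

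**Figure D4:**
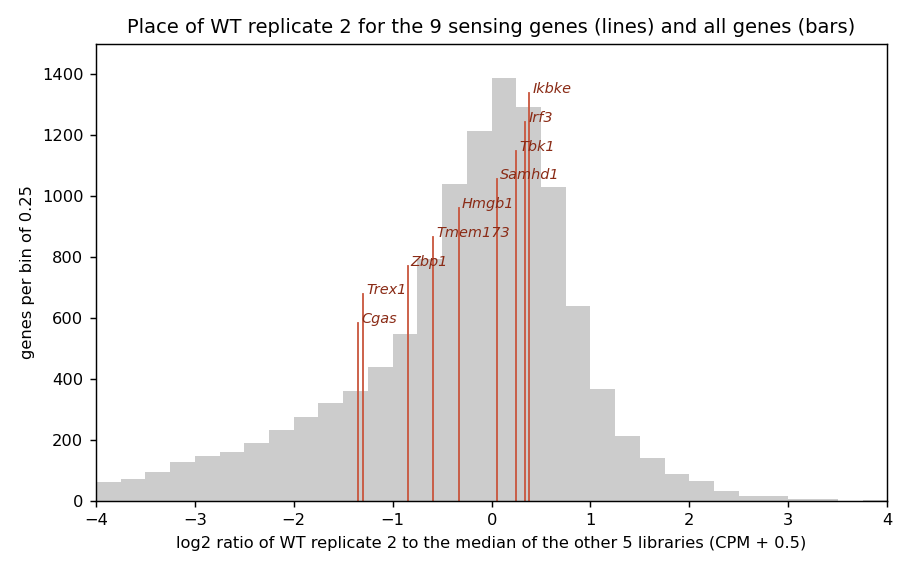
Place of WT replicate 2 against the median of the other 5 libraries, in log2(CPM + 0.5). Red lines mark the 9 genes, from Cgas (-1.35) to Ikbke (0.38), their heights serving only to space the names, and grey bars count the genes of at least 1 CPM per bin of 0.25, whose median is -0.09.

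The wider pathway was read from 10 lists of 129 genes, of which 126 had a count. With all libraries 4 of the 126 (3.17%) had an unadjusted p under 0.05, 1 higher and 3 lower in cKO, against 1.81% of all genes, and without WT replicate 2 there were 6 (4.76%), 3 in each direction, against 3.01%. By edgeR's quasi-likelihood test 0 passed an adjusted p of 0.05 in either fit, and the median log2 fold changes were -0.01 and 0.01. Leaving out 1 library moved the first count to 11 (8.73%) without WT replicate 1, where the share of all genes was 5.71%, and to 7 (5.56%) without WT replicate 3, where it was 3.76%. The count was 2 (1.59%) without cKO replicate 1 against 1.20% of all genes, and 1 (0.794%) without cKO replicate 2 or 3 against 0.470% and 0.425%. In all libraries 8 of the 126 were higher in every cKO than in every WT library and 4 lower. The shares of all genes were 5.01% and 3.23%. Without WT replicate 2 these counts were 12 and 9, and the shares 8.48% and 7.53%. The groups said below not to overlap are to be read beside these shares.

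Among other sensors, 0 of 18 DNA sensors and cofactors had an unadjusted p under 0.05 in either fit, with median log2 fold changes of -0.10 and -0.01. The most abundant of them were Hnrnpa2b1 (612 to 748 CPM over the 6 libraries), Nono (262 to 313 CPM) and Lrrfip1 (228 to 254 CPM), whose groups overlapped. Of 10 genes of RNA sensing and MAVS, 0 had such a p in all libraries and 1, Trim25, without WT replicate 2. Trim25, the ubiquitin ligase of RIG-I, was at 62.5, 92.8 and 47.6 CPM in WT and 71.5, 66.1 and 72.3 CPM in cKO, so its high WT library was WT replicate 2. Its log2 fold change was 0.05 in all libraries and 0.34 without that one (adjusted p = 0.997 by edgeR). Ddx58, which encodes RIG-I, was higher in every cKO library (53.8 to 57.7 CPM) than in every WT library (39.7 to 53.4 CPM), without passing the test (log2 fold change 0.23, adjusted p = 0.984 by edgeR). Tlr7, the endosomal RNA receptor, was at 25.3 to 39.2 CPM.

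Of 20 genes of STING traffic and regulation, 0 had an unadjusted p under 0.05 in either fit, with median log2 fold changes of 0.06 and 0.05. Surf4 (195 to 289 CPM) and Tmed2 (216 to 327 CPM), which carry cargo between endoplasmic reticulum and Golgi were among the most abundant. Of 16 adaptors and regulators of TBK1, 1 had such a p in each fit, and both were lower in cKO. Traf3, a ubiquitin ligase that joins adaptors to TBK1, was at 148, 221 and 138 CPM in WT and 136, 103 and 97.8 CPM in cKO. The groups did not overlap, by a narrow gap at 136 against 138 CPM. Its log2 fold change was -0.59 (SE 0.23, adjusted p = 0.984 by edgeR), and -0.35 (SE 0.16, adjusted p = 0.997) without WT replicate 2. Ptpn11, the phosphatase SHP2, was at 81.9, 72.6 and 76.0 CPM in WT and at 67.1, 57.9 and 67.0 CPM in cKO, also without overlap (log2 fold change -0.26, and -0.30 without WT replicate 2). The selective autophagy receptor Sqstm1 (475 to 642 CPM) and the regulators Tnip1 (149 to 186 CPM) and Tank (122 to 224 CPM) led this list.

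Of the 8 other IRF genes, 0 had an unadjusted p under 0.05 in either fit. Irf1, the most abundant, ranged from 279 to 373 CPM, and Irf9, a subunit of the factor that answers type I interferon, from 77.6 to 112 CPM. Irf2, a repressor of interferon genes, was at 129 to 136 CPM in cKO and 109.6 to 125 CPM in WT. Those groups did not overlap, with a log2 fold change of 0.15 (SE 0.13). Of 19 genes that clear nucleic acid or handle cGAMP, 1 had such a p in all libraries and 2 did without WT replicate 2, all lower in cKO. Dnase1l3, a secreted DNase that myeloid cells are known to make, was at 7.31, 9.54 and 17.3 CPM in WT and 3.90, 4.61 and 7.16 CPM in cKO. The groups did not overlap, and its log2 fold change was -1.12 (SE 0.47, adjusted p = 0.984 by edgeR) and -1.23 (SE 0.38, adjusted p = 0.997) without WT replicate 2. Abcc1, an exporter that can carry cGAMP, was at 64.3, 47.4 and 54.7 CPM in WT and 51.5, 37.5 and 48.2 CPM in cKO, with log2 fold changes of -0.28 and -0.38. Rnaset2a (230.1 to 458 CPM), the cytidine deaminase Apobec3 (275 to 344 CPM) and the lysosomal nuclease Pld3 (242 to 371 CPM) were the most abundant of that list.

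Of 7 cell death partners of ZBP1, 0 had an unadjusted p under 0.05 in all libraries and 1, Ripk1, did without WT replicate 2. Ripk1 was at 49.9, 16.3 and 50.0 CPM in WT and 62.5, 59.1 and 64.2 CPM in cKO. The cKO libraries were close together and above every WT library, and WT replicate 2 was far below the rest. Its log2 fold change was 0.68 (SE 0.39) in all libraries and 0.31 (SE 0.12, adjusted p = 0.997 by edgeR) without WT replicate 2. Ripk3, its partner kinase in necroptosis, went the other way in that library, at 123 CPM against 46.7 to 59.4 CPM in the other 5, as did Casp8 (164 against 87.4 to 108 CPM). Cflar, the inhibitor of caspase-8, was at 119 to 161 CPM. Of 9 HMG box relatives and HMGB1 receptors, 0 had such a p in either fit. The relative Hmgb2 was at 293 to 384 CPM, the receptor Cxcr4 ranged from 231 to 403 CPM, and Havcr2 (TIM-3) from 17.2 to 88.6 CPM.

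At the output of the pathway, 2 of 12 IRF3 target genes had an unadjusted p under 0.05 in all libraries, in opposite directions, and 1 without WT replicate 2. Ifit2, which binds viral RNA, was at 17.5, 10.2 and 15.3 CPM in WT and 22.2, 22.9 and 21.3 CPM in cKO. Every cKO library was above every WT library, with a log2 fold change of 0.62 (SE 0.26, adjusted p = 0.984 by edgeR) and of 0.43 (SE 0.15, adjusted p = 0.997) without WT replicate 2. Cxcl10, the chemokine ligand of CXCR3, was at 121, 163 and 110.1 CPM in WT and 96.7, 105 and 75.1 CPM in cKO. Here the cKO libraries all lay under the lowest WT library, with a log2 fold change of -0.51 (SE 0.20, adjusted p = 0.984 by edgeR) and of -0.33 (SE 0.16, adjusted p = 0.997) without WT replicate 2. Ccl5 (92.6 to 842 CPM) and Isg20 (32.7 to 131 CPM) varied widely within both groups, and both were lowest in WT replicate 2. Ifnb1, the interferon gene that IRF3 switches on, was singled out after its values were seen. It had 6, 202 and 36 counts in WT and 15, 57 and 35 counts in cKO, so that the 1 high library was WT replicate 2. Of 7 genes of interferon receptor and signaling, 0 had an unadjusted p under 0.05 in either fit, with Jak1 at 481 to 641 CPM and the receptor chain Ifnar1 at 148 to 215 CPM.

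**Figure D5:**
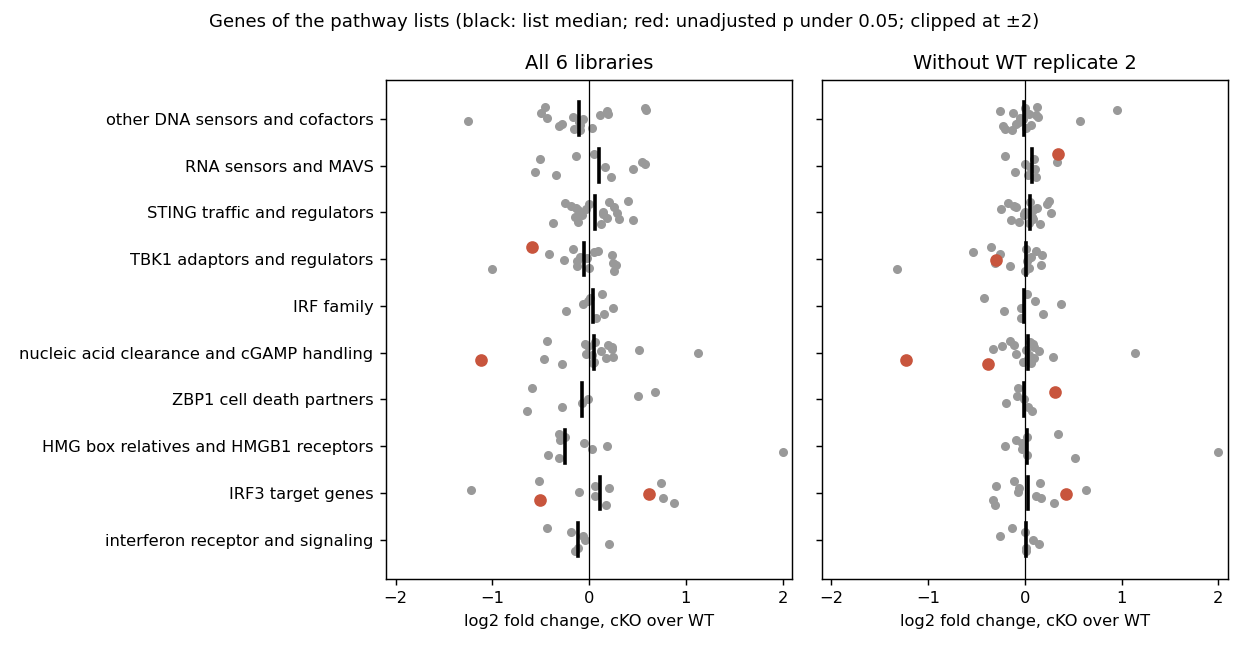
Log2 fold change of cKO over WT for each gene (points) of the 10 pathway lists, with all 6 libraries on the left and without WT replicate 2 on the right, a black line at each list's median, red for an unadjusted p under 0.05 and values clipped at 2 in either direction. The lists spread on both sides of 0, with a median over all 126 genes of -0.01 on the left and 0.01 on the right.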

How the data were processed

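RNA-Seq of 3 WT and 3 cKO libraries of tumor-infiltrating Tregs was used. The authors deposited estimated counts per gene symbol, not normalized, from paired-end reads of a SMARTER library on a BGI-Seq500 aligned to GRCm38. The submitters' processing notes name Bowtie2 (version 2.3.4.3) and RSEM (version 1.3.1), and strand use and the annotation behind the counts are not given in the sources used here. As 21.6% of values were not whole, counts were rounded, which left 15315 genes with at least 1 count. Replicates differed by more than sampling noise (chi-square per degree of freedom 22.6 to 279), and each was used as 1 sample.

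Groups were compared by edgeR's quasi-likelihood test (edgeR 4.0.16, limma 3.58.1, R 4.3.3) with TMM scaling and Benjamini-Hochberg adjustment over all these genes, with all 6 libraries and without WT replicate 2. DESeq2 (1.42.0), used in the study, was an alternative, beside median-of-ratios scaling, library size only, filterByExpr (minimum count 10), limma's voomWithQualityWeights, the replicate number as a block, and each library left out. Standard errors and 95% intervals were worked out from each gene's F statistic. Exact permutation tests were two-sided and cannot give a p under 0.1 for 3 against 3, or under 0.200 for 3 against 2. Levels per kb used the longest principal transcript in GENCODE vM21 (GRCm38), in which 14783 of 15319 symbols were found, and positions are from the same annotation. A limit of 3 counts covers counting error only.

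The genes, lists, markers and motifs were chosen with earlier results of these data known, and no list is independent evidence. Each sensing gene is named, with the 3 most abundant genes of each list, those with an unadjusted p under 0.05 in either fit (at most 5 a list), and the 3 genes nearest in profile to the 2 sensing genes of smallest p. Ifnb1 and Xrcc5 are named outside this rule, and some genes it covers are not reported here. The marker lists were for Tregs, macrophages and dendritic cells, neutrophils, B cells, CD8 T and NK cells, lung epithelium and tumor cells, and endothelial and stromal cells. The scripts were tested on simulated counts in which 200 genes were given a 2-unit log2 change, of which edgeR recovered 156 among 15245 genes for all libraries and 198 among 15250 genes without WT replicate 2, with 10 and 12 unchanged genes called. DESeq2 recovered 172 and 198, with 82 and 26 unchanged genes called. Smaller changes were not simulated. The changed genes were drawn from those with a mean of at least 5 CPM, where Cgas had 4.67 CPM over all libraries. Simulated libraries of a group shared a mean per gene, so WT replicate 2 entered only through the dispersions. The recovery therefore does not measure what these data could detect. In the real fit of all libraries 0 of 15315 genes passed adjustment, Xrcc6 at -3.06 included. Promoter sequences are from RefSeq (GRCm38.p6). A promoter of Tmem173 and of Zbp1, and 3 listed symbols without a row in the table, are not analysed here.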

Additional observations from a re-analysis of the deposited data

How the results depend on the processing

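None of the 9 sensing genes reached an unadjusted p under 0.05 in any alternative run, by edgeR, DESeq2 or limma, and the smallest p was 0.0617 (Tmem173, edgeR without WT replicate 1). Irf3 (lower in cKO) and Samhd1 (higher) kept their direction in every alternative of both fits. For Xrcc6 DESeq2 gave -3.05 (adjusted p = 1.22e-05), leaving out 1 library gave -3.33 to -2.38, and leaving out another beside WT replicate 2 gave -2.52 to -2.24. WT and cKO libraries of the same number had correlations of -0.012, -0.214 and 0.199 over 8447 genes, and those of different numbers -0.308 to 0.307. As deviations from group means of 3 libraries were correlated, these values can neither show nor exclude a pairing. With the replicate block 0 sensing genes passed in either fit. Without WT replicate 2 the block turned Tmem173 to 0.00 and Zbp1 to -0.12, voomWithQualityWeights turned Hmgb1 to 0.03, and median-of-ratios scaling and library size only turned Surf4 to -0.00 and -0.01. Library size only turned Trim25 to -0.03, Apobec3 to -0.01 and Cxcr4 to -0.05 in all libraries, and lowered the 6 listed genes of unadjusted p under 0.05 without WT replicate 2 to 2. With 1 library left out, sensing genes whose groups did not overlap numbered 0 to 4. Listed genes of unadjusted p under 0.05 numbered 1 to 11, while the share of all genes ran from 0.425% to 5.71%, or 3 to 14 when WT replicate 2 was left out too, with 1.22% to 8.20% of all genes. Leaving out 1 library of 6 turned the direction of some log2 fold changes, with ranges of -0.01 to 0.38 for Tmem173, -0.14 to 0.03 for Tbk1, -0.35 to 0.03 for Ikbke, -0.07 to 0.63 for Trex1 and -0.02 to 0.21 for Hmgb1. Among listed genes the ranges were -0.15 to 0.34 for Trim25, -0.26 to 0.07 for Tlr7, -0.23 to 0.08 for Tmed2, -0.04 to 0.17 for Irf1, -0.24 to 0.23 for Rnaset2a, -0.02 to 0.15 for Apobec3, -0.15 to 0.17 for Pld3, -0.21 to 0.02 for Cflar, -0.45 to 0.03 for Casp8, -0.17 to 0.03 for Hmgb2, -0.13 to 0.28 for Cxcr4, -0.20 to 1.25 for Havcr2, -0.32 to 1.07 for Ccl5, -0.30 to 0.72 for Isg20 and -0.26 to 0.01 for Ifnar1. Leaving out 1 more beside WT replicate 2 gave -0.21 to 0.34 for Cgas, -0.19 to 0.19 for Tmem173, -0.02 to 0.09 for Tbk1, -0.21 to 0.31 for Ikbke, -0.26 to 0.15 for Trex1, -0.12 to 0.21 for Zbp1 and -0.12 to 0.13 for Hmgb1. Among listed genes it gave -0.08 to 0.03 for Lrrfip1, -0.47 to 0.13 for Tlr7, -0.12 to 0.13 for Surf4, -0.02 to 0.15 for Tmed2, -0.09 to 0.06 for Irf1, -0.05 to 0.09 for Irf9, -0.13 to 0.11 for Apobec3, -0.37 to 0.25 for Pld3, -0.07 to 0.15 for Casp8, -0.22 to 0.08 for Ripk3, -0.14 to 0.09 for Hmgb2, -0.36 to 0.40 for Cxcr4, -0.86 to 1.03 for Havcr2, -0.80 to 0.39 for Ccl5, -0.73 to 0.32 for Isg20 and -0.09 to 0.12 for Ifnar1. The cause of these changes was not tested. Cgas, the gene of lowest depth, had 40 to 131 counts a library.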

Other observations

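Xrcc5, which encodes Ku80, the partner of Ku70 in binding DNA ends, is among the listed DNA sensors and was singled out after its values were seen. The cKO replicates held 21.5, 21.7 and 22.0 CPM and WT replicates 1 and 3 held 22.4 and 21.1 CPM, against 0.0940 CPM in WT replicate 2, where Xrcc6 was at 63.1 CPM. Without WT replicate 2 its log2 fold change was -0.00 (SE 0.13, edgeR adjusted p = 0.998).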
